A study of Drosophila melanogaster with 2 samples.

Results

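Diverging gene-pair promoters, at which 2 protein-coding genes are transcribed away from each other, held 693 of the 2433 reproducible peaks of CG9876-GFP (28.5%). A peak belonged to this class when its summit lay within 1 kb of annotated transcription start sites (TSSs) on both strands and the leftmost minus-strand TSS in that window stood at or left of the rightmost plus-strand TSS. The choice used position only and no signal value. A further 922 peaks were within 1 kb of TSSs that did not meet this rule and are called one-direction promoter peaks, and 818 were over 1 kb from any TSS. Of the 698 peaks with TSSs of both strands in the window, 5 had no diverging arrangement. For each of the 693, the pair is the diverging minus- and plus-strand TSS with the smallest summed distance to the summit.

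The data are anti-GFP chromatin immunoprecipitation sequencing (ChIP-seq) of whole Drosophila melanogaster embryos, 0 to 24 h old and of both sexes pooled, in 2 biological replicates. All embryos came from 1 transgenic line, CG9876-GFP, which expresses the homeobox protein CG9876 with GFP at its C-terminal end, so there was 1 group and no treatment. The regulatory sequence that drives the tagged copy and the state of the native CG9876 gene are not given in the labels, and a whole embryo mixes all cell types and stages of that day. Control libraries were not analysed here, so signal that an anti-GFP precipitation would give without the tagged protein was not measured. For each replicate and for both combined, 30000 candidate regions with a signal in the authors' unit were deposited, and the depth behind them is unknown. Signals are used to rank and describe regions within a list. They are also set side by side between the replicate lists, whose scaling to each other is not given. Intervals on shares are 95% Clopper-Pearson intervals over peaks, which are not replicates, and cover counting error only; the same measure in the 2433 strongest regions of each replicate gives the replicate spread as mean ± SD (n = 2). With 1 group there was nothing to test between conditions.

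In the compact fly genome many neighbouring genes are arranged head to head, so that a short nucleosome-poor stretch serves as the upstream sequence of both, with a separate core promoter on each strand. Such pairs are often broadly expressed genes of growth and basic metabolism. Several sequence elements are known from these promoters: the DNA replication-related element (DRE), bound by DREF; the core CGATA, which the insulator protein BEAF-32 recognises and which lies within DRE; and Ohler motif 1, bound by M1BP. Homeodomain proteins in general bind short sites with a TAAT core, and those of the paired-like class can bind as dimers to TAAT and ATTA set a few bases apart.

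The stretches below show what lies between paired start sites. They were taken from the RefSeq sequence of the dm6 genome, on the plus strand and 5′ to 3′, and each runs from the base after the minus-strand TSS to the base before the plus-strand TSS, with no annotated exon inside. Capitals mark matches on either strand to DRE (TATCGATA), Ohler motif 1 (GGTCACACT), CGATA, CAACACTG or CAGCCCTG; the last 2 words were chosen after their counts at these summits were seen. Atat/Shc at chr3L:9426759-9427009 and RpS25/CG4820 at chr3R:11216288-11216534 have the highest signals among the stretches eligible for printing that hold DRE, and brun/CG2614 at chr2L:20656179-20656425 holds DRE and Ohler motif 1. The pair trbd/dmt at chr3R:9711038-9711141 has CAACACTG in its reverse orientation, and CG1105/CG1965 at chr3R:7067137-7067400 has CAGCCCTG. Art3/mRpS10 at chr3R:15229409-15229664, RpS27/Nup37 at chr3R:25247515-25247657 and Tcs5/CHMP2B at chr3L:5139396-5139618 are among the strongest and have none of the 4 longer elements.
Atat/Shc: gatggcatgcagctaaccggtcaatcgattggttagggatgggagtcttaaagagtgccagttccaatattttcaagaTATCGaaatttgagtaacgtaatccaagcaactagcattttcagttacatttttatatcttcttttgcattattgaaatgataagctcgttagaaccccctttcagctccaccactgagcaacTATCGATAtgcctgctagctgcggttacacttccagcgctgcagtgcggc
RpS25/CG4820: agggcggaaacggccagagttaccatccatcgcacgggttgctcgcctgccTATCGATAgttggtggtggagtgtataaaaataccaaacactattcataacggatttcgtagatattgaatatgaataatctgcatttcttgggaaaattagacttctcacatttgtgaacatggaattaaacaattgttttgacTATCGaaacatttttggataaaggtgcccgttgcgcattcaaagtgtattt
brun/CG2614: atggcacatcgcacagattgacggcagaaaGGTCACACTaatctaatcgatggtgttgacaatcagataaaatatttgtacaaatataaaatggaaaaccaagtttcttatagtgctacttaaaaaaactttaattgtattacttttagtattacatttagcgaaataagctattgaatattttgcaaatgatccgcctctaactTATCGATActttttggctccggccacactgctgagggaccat
trbd/dmt: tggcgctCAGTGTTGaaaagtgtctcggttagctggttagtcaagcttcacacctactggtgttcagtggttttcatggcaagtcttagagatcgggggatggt
CG1105/CG1965: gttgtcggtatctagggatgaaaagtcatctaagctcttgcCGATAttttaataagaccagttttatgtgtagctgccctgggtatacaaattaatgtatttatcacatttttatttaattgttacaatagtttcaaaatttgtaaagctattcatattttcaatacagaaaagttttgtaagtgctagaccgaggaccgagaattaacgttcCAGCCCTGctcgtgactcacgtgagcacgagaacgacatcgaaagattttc
Art3/mRpS10: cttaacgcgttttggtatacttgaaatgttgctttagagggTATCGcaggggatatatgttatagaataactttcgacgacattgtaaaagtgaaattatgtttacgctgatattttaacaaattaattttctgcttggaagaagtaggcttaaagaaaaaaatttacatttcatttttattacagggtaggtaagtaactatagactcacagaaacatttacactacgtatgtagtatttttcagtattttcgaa
RpS27/Nup37: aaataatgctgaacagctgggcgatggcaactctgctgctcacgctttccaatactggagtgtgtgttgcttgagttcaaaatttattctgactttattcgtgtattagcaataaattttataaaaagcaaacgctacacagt
Tcs5/CHMP2B: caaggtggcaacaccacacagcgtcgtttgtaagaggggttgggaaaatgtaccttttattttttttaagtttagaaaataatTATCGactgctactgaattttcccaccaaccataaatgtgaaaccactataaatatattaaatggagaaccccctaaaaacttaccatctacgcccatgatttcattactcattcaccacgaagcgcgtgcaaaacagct

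The summit was at base 148 of the Atat/Shc stretch, 51 of RpS25/CG4820, 95 of brun/CG2614, 48 of trbd/dmt, 173 of CG1105/CG1965, 118 of Art3/mRpS10, 13 of RpS27/Nup37 and 110 of Tcs5/CHMP2B. Stretches that could be shown in this way, of 60 to 300 bases and outside arms not printed here, numbered 216 among the 693, of which 34 held DRE, 13 Ohler motif 1, 15 CAACACTG, 18 CAGCCCTG and 119 CGATA.

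The strongest peak of the class lay between Ugalt, a nucleotide sugar transporter gene, and eIF2Bbeta, a subunit of the exchange factor that recharges eIF2, on X at 2703897. Its combined signal was 1376, and it stood at 833.1 in replicate 1 and at 547.3 in replicate 2, ranks 3, 3 and 6. The next lay between Atat, an alpha-tubulin acetyltransferase gene, and Shc, an adaptor of receptor tyrosine kinases, with 1096, 693.9 and 399.5. The peak at mRpL41, of the mitochondrial ribosome, and CG8079 on 2R had 1077, 590.8 and 491.7. At Chro, which encodes a chromodomain protein of chromosomal interbands and the spindle, and Ssl1, a subunit of TFIIH, the values were 1001, 578 and 420.3. The 20 strongest members all ranked within the first 59 regions of replicate 1 and the first 86 of replicate 2, and 19 of 20 had the higher signal in replicate 1.

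Several of the next pairs hold a gene of a ribosome. PNPase, the mitochondrial polynucleotide phosphorylase, pairs with Gprk2, a G protein-coupled receptor kinase (combined signal 854.2, replicate 1 485.6, replicate 2 374.8). Next came mRpS23 of the mitochondrial ribosome with CenG1A, an Arf GTPase-activating protein (842.7, 449.1 and 391.4, in the same order), and Art3, an arginine methyltransferase, with mRpS10 (830.1, 439.7 and 389.6). RpS27 of the cytosolic ribosome with the nucleoporin gene Nup37 had 802.9, 481.4 and 318. Tcs5 with CHMP2B, a subunit of the membrane-cutting complex ESCRT-III, had 792.1, 445.9 and 349.2. All 5 of these pairs were higher in replicate 1 than in replicate 2 and none was below rank 32 in either. CG5757/CG5098, Pdrg1/Pal1, Ripalpha/RpL7, CG8372/CG8360, CG7601/CIA30, tank/CG12194, Fbw5/CG9147, Dpit47/Adf1, Pex11ab/CG8320, Mnat9/CG1792 and CG17896/CG17778 made up the rest, with combined signals from 567.6 to 748. Only Mnat9/CG1792 among the 20 was higher in replicate 2, by little (296.4 in replicate 1 and 303.5 in replicate 2). Within 100 bp of the summit, 1 of the 20 had DRE and 1 had Ohler motif 1, beside 98 and 30 of all 693 members.

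The 693 peaks belonged to 661 distinct pairs with 1319 genes, since 32 pairs had 2 peaks each. In 640 peaks exactly 2 genes had a TSS in the window, and in 53 there were 3 or more. The class held 34.1% of the reproducible peaks on 3R (202), 28.8% on 2L (136), 28.8% on 3L (138), 28.2% on 2R (124), 20.9% on X (91) and 2 of the peaks on chromosome 4. Applied to the 2433 strongest regions of each replicate alone, the same rule found 718 in replicate 1 and 647 in replicate 2, or 28.05% ± 2.06 (SD, n = 2).

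Paired start sites were a median of 307 bp apart, with quartiles of 221 and 493 bp and a range from 8 bp (SerRS/CG17260) to 1634 bp (myo/ey). Replicate regions gave medians of 313.5 and 304 bp. The summit lay at or between the 2 TSSs in 549 of 693 peaks (79.2%, interval 76.0 to 82.2; 78.82% ± 6.12, SD, n = 2, in the replicate lists). It was left of the minus-strand TSS in 79 and right of the plus-strand TSS in 65, which places it inside 1 of the genes. Against the annotation of all genes, 425 summits were between genes (61.3%), 167 in a 5′ UTR (24.1%), 85 in an intron and 5 in a coding exon. The precision of these positions is limited, since 84.3% of the reproducible summits stand at the exact centre of their region, and the 2 replicates placed the summit a median of 24 bp apart, with 92.9% of matched members within 100 bp.

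Summits stood close to 1 of the 2 start sites. The nearer TSS was a median of 62 bp away (quartiles 32 and 102 bp) and the farther 258 bp, and 517 summits (74.6%) were within 100 bp of the nearer. The minus-strand TSS was the nearer in 342 and the plus-strand TSS in 351, a near-even split. Of the 549 summits between the pair, 144 (26.2%) lay in the middle of the stretch when it is cut into 3 equal parts, where an even spread would put 33.3%. In pairs 201 to 300 bp apart the median distances were 67 and 193 bp (n = 182), in pairs 401 to 600 bp apart 70 and 423 bp (n = 118), and in pairs over 600 bp apart 87.5 and 724.5 bp (n = 116). The distance to the nearer TSS thus changed far less with the gap than the distance to the farther one, though the assigned pair is by the rule the closest to the summit. In the 78 pairs at most 100 bp apart, whose stretch is short, 30.8% of summits were between the TSSs, against 70.8% at 101 to 200 bp and from 86.4% to 87.9% in the 4 wider classes.

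**Figure D1:**
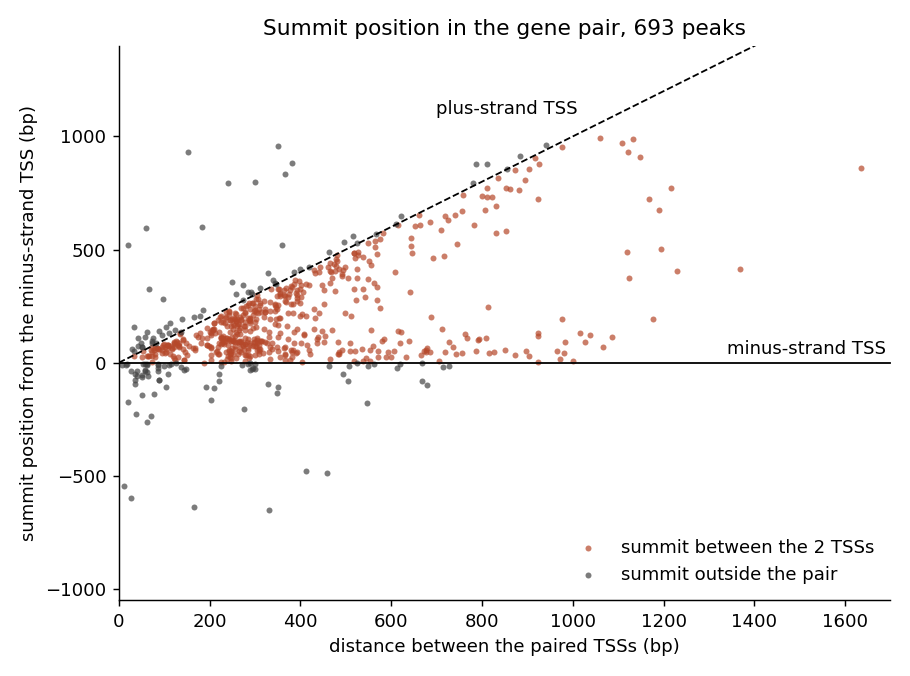
Summit position from the minus-strand TSS (vertical, bp) against the distance between the paired TSSs (horizontal, bp) for the 693 diverging-promoter peaks. The solid line is the minus-strand TSS and the dashed line the plus-strand TSS; 549 points lie on or between the lines, and at wide gaps most points follow 1 of the 2 lines.

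Some members lay well outside their pair. The Chro/Ssl1 summit was 107 bp left of the Chro TSS, in its 5′ UTR, in a pair only 105 bp apart, and PNPase/Gprk2 had its summit 82 bp inside PNPase. At Dpit47/Adf1 on 2R, genes for a DNA polymerase-interacting protein and a transcription factor, the summit was 931 bp from the Dpit47 TSS and 779 bp beyond that of Adf1, in an intron, with signals of 409.2 in replicate 1 and 198.7 in replicate 2. At the 1 kb limit of the rule, the 3 members just inside were Rab1/Idi and Or9a/Neb-cGP, each with the farther TSS at 995 bp, and RpS7/Anp at 994 bp, with combined signals of 98.4, 116.9 and 114.4. Just outside were CG31174/CG31431 and px/CG11362 at 1006 bp and CG11583/CG1316 at 1022 bp, with 343.4, 96.8 and 87.8. The lists around the limit therefore overlapped in signal.

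Combined signal in the class ran from 85.4 at Ugt35D1/Gcn2 to 1376, with a median of 134.4 and quartiles of 105.8 and 192.8. One-direction promoter peaks had nearly the same distribution (median 132.1, quartiles 103.2 and 191.9), and peaks over 1 kb from a TSS were lower (median 120.9, quartiles 98.5 and 166.5). The difference of 2.3 between the medians of the 2 promoter classes is small beside these quartiles. It was 2.68 and 1.4 among the strongest regions of replicates 1 and 2 but turned to -1.52 among the peaks above the median signal and to -3.5 with a 2 kb window. Closely spaced pairs had somewhat higher signals, with medians of 152 in pairs up to 100 bp apart, 141.9 at 101 to 200 bp and 136.6 at 201 to 300 bp, against 124.6 to 126.2 in the 3 wider classes. Replicate 1 medians in the same order were 80.1, 71.1, 76.2, 72.8, 70.2 and 72.7, and replicate 2 medians were 73.1, 64.3, 65.6, 61.2, 57.6 and 63.1. Both replicates were highest in the closest pairs, and neither fell steadily with the gap.

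The members differed between replicates more in 1 direction than other peaks did. Of the 693, 675 were matched in both replicates, meaning that a listed region held the summit, and 452 of these (67.0%) had the higher signal in replicate 1, against 55.0% of one-direction promoter peaks and 51.4% of peaks over 1 kb from a TSS. The median signal of members was 73.3 in replicate 1 and 62.8 in replicate 2, a median log2 ratio of 0.23 with an SD of 0.58 across peaks. One-direction promoter peaks had 68 and 66.3 (log2 ratio 0.06), the others 60.6 and 64.3 (0.02), and all reproducible peaks a median log2 ratio of 0.09. How the lists were scaled to each other is not given in the sources used here, and the part of scaling in the difference between replicates was not tested. With 2 replicates, the difference cannot be tested beyond these libraries.

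**Figure D2:**
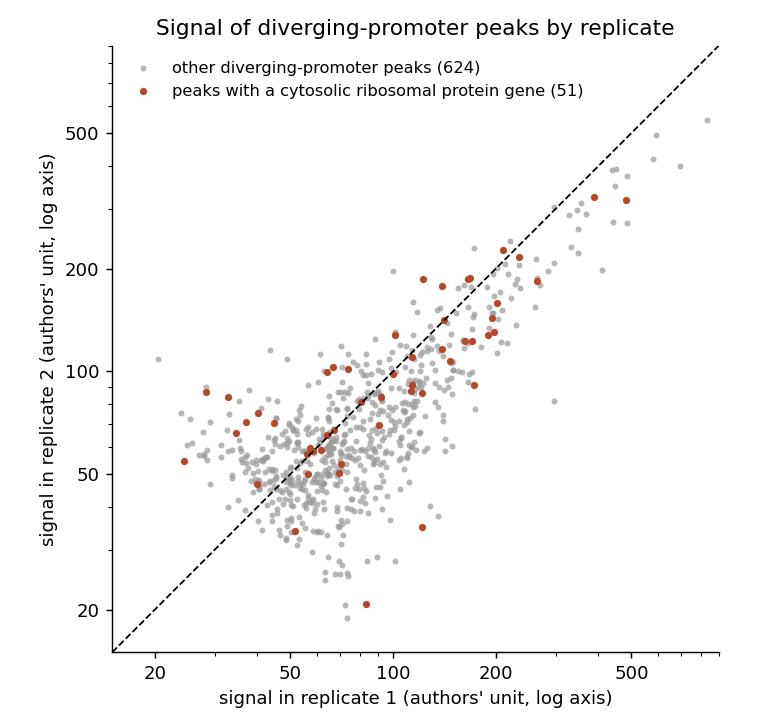
Signal in replicate 2 (vertical) against replicate 1 (horizontal), both in the authors' unit on log axes, for the 675 diverging-promoter peaks matched in both replicates. Red points are the 51 peaks with a cytosolic ribosomal protein gene, grey points the other 624, and the dashed line marks equal values; 452 of 675 points lie below it.

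Individual pairs departed from this in both directions. The peak at RpL5, of the large ribosomal subunit, and CG17490 on 2L had 83.5 in replicate 1 and 20.8 in replicate 2, the largest difference of that sign (log2 ratio 2). The peak at muskelin/CG33792 on 2R had 20.4 and 108.8, the largest of the other (log2 ratio -2.41). The lowest member, Ugt35D1/Gcn2 on 3R, had 27.9 and 56.4, at ranks 6604 and 1626. No listed region held the summit in replicate 1 for 13 of the 693 members and in replicate 2 for 5. Over all 2433 reproducible peaks these counts were 55 and 16. A listed region overlapped the peak in 12 of the 18 member cases. At Bdp1, a subunit of TFIIIB, and CG6565, with a combined signal of 463.8 and 276.2 in replicate 1, replicate 2 listed 2 overlapping regions, the higher with 183.5 at rank 111. At myo/ey on chromosome 4 no region of replicate 1 overlapped the peak (combined 94.6, replicate 2 38.6).

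The peaks that both replicates ranked high were slightly more frequent in the class than in the list as a whole. Over all reproducible peaks, 66.9% were among the 2433 strongest regions of both replicates, against 491 of 693 members (70.9%, interval 67.3 to 74.2), 69.3% of one-direction promoter peaks (66.2 to 72.3) and 60.8% of the peaks over 1 kb from a TSS (57.3 to 64.1). The 2 promoter classes had overlapping intervals. Among the members that the rule finds in each replicate list alone, the share was 69.22% in replicate 1 and 76.2% in replicate 2. In neither replicate's strongest regions were 12 of the 693 members, beside 46 of all 2433 reproducible peaks.

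Diverging promoters were concentrated at the top of the candidate lists. Among the 1000 strongest combined candidates 31.4% were at diverging promoters (interval 28.5 to 34.4), then 26.4% at ranks 1001 to 2000, 23.6% at 2001 to 3000, 14.1% at 4001 to 5000 and 8% at 9001 to 10000, and 4.4% among the last 1000 of 30000. The share among the first 1000 was thus well above that among the last 1000 in counting terms, and each replicate showed this alone, with 33% and 4.6% in replicate 1 and 28% and 5.5% in replicate 2. Replicate 1 dropped sooner, to 8.1% at ranks 4001 to 5000, where replicate 2 still had 16.4%. Over the same combined ranks, one-direction promoters went from 39.4% to 22.5% and regions over 1 kb from a TSS from 29.2% to 73.1%.

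**Figure D3:**
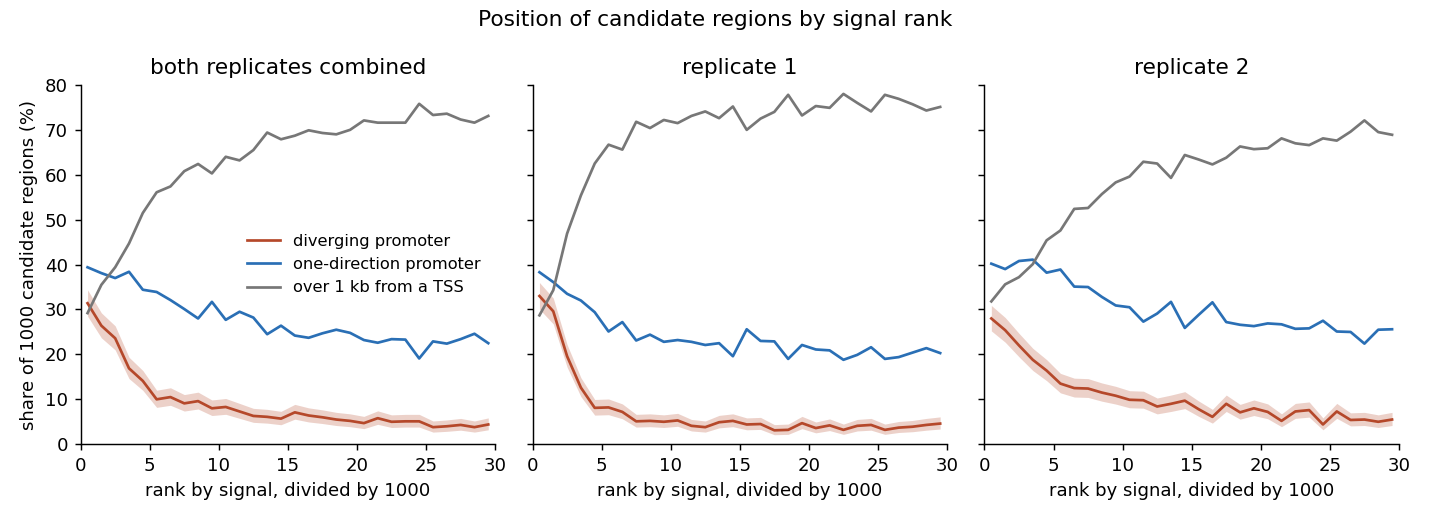
Share of candidate regions (vertical, %) at diverging promoters, at one-direction promoters and over 1 kb from a TSS, in consecutive sets of 1000 regions by signal rank (horizontal, axis divided by 1000), for the combined list and each replicate. The band is the 95% Clopper-Pearson interval of the diverging share, which goes from 31.4% to 4.4% in the combined list.

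Seen from the genome, most annotated diverging pairs had no reproducible peak. The annotation holds 2667 pairs of protein-coding genes with diverging TSSs at most 1 kb apart, and 712 of them had a reproducible summit within 1 kb of both TSSs (26.7%, interval 25.03 to 28.42; 26% ± 1.83, SD, n = 2, in the replicate lists). More pairs than peaks are counted, because 1 peak can serve more than 1 annotated pair. Pairs that share a peak are not independent, and the intervals do not allow for this. The window of the pre-mod(mdg4)-E/pre-mod(mdg4)-AD peak on 3R, for example, held TSSs of 3 minus-strand and 7 plus-strand genes. The share was highest at 201 to 300 bp apart (34.9%, interval 30.9 to 39.0) and 301 to 400 bp (32.5%, 27.9 to 37.3), and lower in pairs up to 50 bp (18.7%, 13.3 to 25.1) and over 600 bp apart (19%, 15.5 to 22.8). Both replicates put 201 to 300 bp first, with 35.8% and 32.1%, and over 600 bp last, with 17.9% and 16.6%. Because a summit must lie within 1 kb of both TSSs, the stretch in which it counts is shorter at wider gaps. The part of this rule in the lower share of wide pairs was not tested. By arm, 32.5% of pairs on 3R had a peak (29.0 to 36.2; replicates 32.4% and 29%) and 20.6% on X (16.8 to 24.9; 22.6% and 18.1%), so X was the lower in both replicates. On 2L, 2R and 3L the shares were 26.7%, 22.8% and 28.2%, and on chromosome 4, 1 of 11 pairs.

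**Figure D4:**
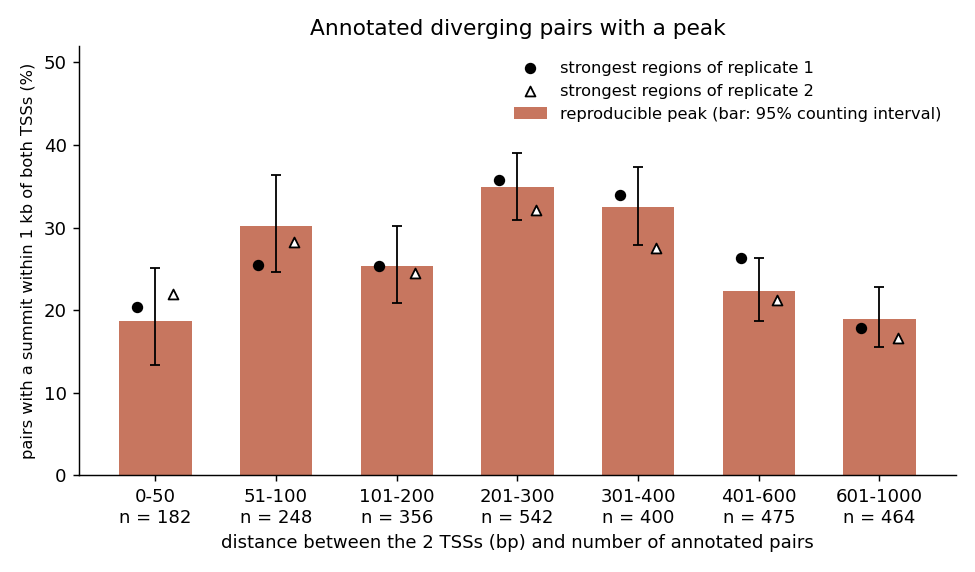
Share of annotated diverging pairs with a summit within 1 kb of both TSSs (vertical, %) by the distance between the TSSs (horizontal, bp, with the number of pairs). Bars with 95% Clopper-Pearson intervals are reproducible peaks, circles replicate 1 and triangles replicate 2. The highest bar is 34.9% at 201 to 300 bp. By the rule, the stretch in which a summit counts is shorter at wider gaps.

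Counted by gene, 15.8% of all 13945 protein-coding genes had a reproducible summit at most 1 kb from a TSS, as did 28.6% of the 5052 genes in annotated diverging pairs (interval 27.3 to 29.9) and 8.49% of the 8893 others (7.92 to 9.09). A peak between 2 genes counts for both, so the genes of a pair are not independent. Paired genes of members had a median span of 2678 bp (quartiles 1564 and 4926), shorter than the 6105 bp of genes at one-direction promoter peaks but longer than the 2161 bp of genes of annotated pairs without a peak and the 2166 bp of all protein-coding genes. A single TSS was annotated for 62.3% of them, against 45.0%, 70.4% and 73.5% in the same order.

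Cytosolic ribosomal protein genes, taken by symbol, made up the largest listed group at these promoters. Products of such genes in general form the ribosome outside mitochondria. Of the 91 listed genes, 70 had a summit within 1 kb of a TSS (76.9%), beside 15.8% of all protein-coding genes. In annotated diverging pairs it was 50 of 56 (89.3%, beside 28.6% of all genes in pairs). Among the others it was 20 of 35 (57.1%, beside 8.49% of all genes not in pairs). The listed genes were paired genes of 52 members, with a median combined signal of 174.8 and a range from 88.9 to 802.9. RpS27/Nup37 and Ripalpha/RpL7 led them, the latter at 706.4 combined (387.7 for replicate 1, 324.3 for replicate 2), followed by RpL34b/CG8132 (453, 264.4 and 184.3) and Nelf-E/RpL14 (446.8, 209.7 and 226.4). Replicate 1 was the higher in the first 3 and replicate 2 in Nelf-E/RpL14, where the partner encodes a subunit of the pausing factor NELF. These genes are highly transcribed in embryos, and the part of transcription level in the signal was not tested.

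At these 52 members the summit stood by the ribosomal gene. The ribosomal TSS was nearer than the partner's in 46 (88.5%, interval 76.6 to 95.6), at median distances of 37 and 310 bp, and in 45 it was within 100 bp. With the summits of each replicate in place of the combined one, it was nearer in 43 of 51 and 44 of 52. RpL7, for example, had the summit 29 bp inside its own TSS and 59 bp from that of Ripalpha, RpL34b had it at 45 bp against 224 bp for CG8132, and RpL14 at 32 bp against 95 bp for Nelf-E. DRE was within 100 bp of the summit in 16 of the 52, beside 98 of all 693 members (14.1%). Mitochondrial ribosomal protein genes showed no such side. Of 15 members with 1 such gene the mitochondrial gene was the nearer in 5 (33.3%, 11.8 to 61.6). Its median distance was 187 bp against 118 bp for the partner. None of these 15 had DRE, beside the same 14.1% and over few members.

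Mitochondrial ribosomal protein genes were often in diverging pairs, 59 of 75, and 16 of these 59 had a peak (27.1%), close to the 28.6% of all genes in such pairs. Their members ranged widely, with mRpL41, mRpS23 and mRpS10 among the 7 strongest of the class and mRpL23/CG9004 next (combined 395.8, replicate 1 196.3, replicate 2 193.4), the median of the 15 being 169.7. Genes of the respiratory chain and ATP synthase had peaks in 11 of 45 in pairs (24.4%), led by TppII/ND-MWFE, with a complex I subunit gene (349.5, 203.5 and 142.7), and glo/COX5A (182.3, 90 and 87.6). Proteasome genes had 5 of 26 (19.2%), led by Hat1/Rpn5 (178.6, 104.1 and 71.5). The shares of these 3 lists were near or under that of all genes in pairs.

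Translation factor genes had peaks in 13 of 27 in pairs (48.1%) and aminoacyl-tRNA synthetase genes in 7 of 23 (30.4%), beside 28.6% of all genes in pairs; the synthetase share is near that level. After eIF2Bbeta, the highest translation factor members were RpL28/eIF1 (349.8, 197.3 and 130.1 in combined, replicate 1 and replicate 2), CCHa1-R/eIF3c (255.8, 147.8 and 105.8) and ppk29/eEF5 (252.6, 134.2 and 119). In the last 2 the partner is a neuropeptide receptor or ion channel gene, and the summit was 4 bp and 9 bp from the TSS of the translation factor against 614 and 652 bp from the partner. Ugalt/eIF2Bbeta and RpL28/eIF1 went the other way, with the summit 674 and 333 bp from the factor's TSS against 45 and 48 bp from the partner's. Over the 13 members the factor's TSS was the nearer in 8. Hem/IleRS (217.5, 108.1 and 102.8), with DRE, led the synthetases, followed by SerRS/CG17260 (202.5, 112.8 and 100.4). All of these members were higher in replicate 1, as was 67.0% of the class.

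RNA polymerase, TAF and Mediator genes had peaks in 15 of 50 in pairs (30%), near the 28.6% of all genes in pairs. Among them were CG11247/Polr2H, with a shared polymerase subunit (341.9, 216.1 and 121.2), MED30/Rev1 (339.9, 191.4 and 153.9) and CG4297/MED15 (253.3, 155.1 and 100). Replication and cell cycle genes, taken by symbol, had 4 of 17 (23.5%), under the 28.6% of all genes in pairs. PCNA2/CG10366 (166.8, 100.4 and 67.1) and SAK/Cdk12 (144.9, 79.9 and 68.5), the latter listed for its Cdk symbol only, were highest. Chaperone genes had 5 of 14 (35.7% beside the same 28.6%), CG14965/Hsp83 being the highest (267.9, 114.1 and 159.6) with the summit 95 bp from the Hsp83 TSS. That member was higher in replicate 2, while Hsc70-5/CG8531 (103.9 and 54.9) and tefu/Hsc70-4 (104.6 and 45.1) were higher in replicate 1.

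Genes of insulator and DREF-related proteins are few, 6 of 10 being in pairs, and 5 of these had a peak (83.3% beside 28.6% of all genes in pairs, over few genes). Besides Chro/Ssl1 they included CG12974/pzg, whose product acts with DREF (332.7, 191.2 and 134.1), Dref/RpL13 (169.2, 80.7 and 81.5) and Cp190/CG4338 (156.7, 89.2 and 68). The gene for DREF thus has a peak at its own promoter, 63 bp from the Dref TSS and 21 bp from that of RpL13. Polycomb and trithorax genes had 3 of 4 in pairs (75% beside 28.6% of all genes in pairs, over few genes). Of those not in pairs, 4 of 6 had a peak (66.7% beside 8.49% of all such genes). The members were brm/Arl1 (177.2, 110.5 and 80), mor/Hel89B (135.6, 82.4 and 51.3) and E(z)/Cnep1r2 (129.7, 88.6 and 42.6). Each was nearer the listed gene, and 2 of these genes encode subunits of the Brahma remodelling complex. Of 96 homeobox genes only 4 are in annotated diverging pairs, and 1 of these 4 had a peak (25% beside 28.6% of all genes in pairs). Members with a homeobox gene were ro/T48 (192.8, 114 and 80.1) and myo/ey, with the listed TSS 354 and 773 bp from the summit. The myo and ey TSSs are 1634 bp apart, so they are not among the annotated pairs. In all, 136 members had a listed gene, and 2 had listed genes on both sides, RpL28/eIF1 and Dref/RpL13.

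DRE stood within 100 bp of the summit in 98 members (14.1%, interval 11.6 to 17.0; 12.95% ± 1.57, SD, n = 2, in the replicate lists). The share over all reproducible peaks was 6.04%, with 5.21% at one-direction promoter peaks (3.86 to 6.84) and 1 of 818 at peaks over 1 kb from a TSS. In windows of the same length centred 500 bp to the left and right of the members' summits, 6 and 12 had the motif (1.3%), and around the 19252 annotated TSS positions 6.45% had it. The interval of the members' share lay above that of one-direction promoter peaks. One-direction summits stood a median of 190.5 bp from the nearest TSS, against 62 bp from the nearer paired TSS for members. The part of this distance in the motif differences between the 2 promoter classes, here and below, was not tested. Median signal was 127 in members with DRE and 135.2 in those without, at 69.2 and 73.9 in replicate 1 and 63.0 and 62.7 in replicate 2, so DRE did not go with higher signal.

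DRE separated bound from unbound pairs little. At the midpoint of annotated diverging pairs it was present in 8.43% of pairs with a peak and 8.59% of those without. Over the whole stretch with 100 bp on either side, 24.7% of the 712 pairs with a peak held it (21.6 to 28.1) and 20.9% of the 1955 without (19.1 to 22.8). Stated the other way, 30.1% of pairs with DRE had a peak (26.4 to 34.0; replicates 29.2% and 27.7%) and 25.7% of pairs without (23.9 to 27.7; 26.8% and 23.9%). Whether the higher share at member summits reflects more than the class of promoter was not tested.

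Ohler motif 1 was within 100 bp of 30 member summits (4.33%, interval 2.94 to 6.12; 4.47% ± 0.018, SD, n = 2), against 2.38% of all reproducible peaks, 2.82% of one-direction promoter peaks (1.85 to 4.10) and 4.42% of annotated TSS positions. Flanks had it in 4 and 14 cases. The member share was no higher than that of TSSs in general, and its interval overlapped that of one-direction promoter peaks. Pairs with the motif in the stretch had a peak in 21.1% of cases (17.3 to 25.4; replicates 23.3% and 19.2%) and pairs without in 27.7% (25.9 to 29.6; 28% and 25.7%), so the pairs with it were the lower in both replicates. DRE and Ohler motif 1 occurred together near 2 member summits.

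Among 8-base words counted at summits and flanks, those with at least 4 G or C letters include CAACACTG and CAGCCCTG, chosen for a closer count after these values were seen. CAACACTG was within 100 bp of 49 member summits (7.07%, interval 5.28 to 9.24) and in 6 and 7 of the flanks. One-direction promoter peaks had a similar share (5.97%), peaks over 1 kb from a TSS 1.1%, and annotated TSSs 2.58%. CAGCCCTG was near 46 member summits (6.64%, 4.90 to 8.75) and in 4 and 5 flanks, with 2.6% of one-direction promoter peaks (1.67 to 3.85), 1 of the 818 others and 1.52% of annotated TSSs. In the replicate lists the 2 words stood at 7.95% ± 0.969 and 6.28% ± 0.574 of members (SD, n = 2). Annotated pairs with CAACACTG in the stretch had a peak in 41% of 227 cases (34.5 to 47.7; replicates 44.1% and 38.8%) against 25.4% of pairs without, and those with CAGCCCTG in 52.4% of 168 cases (44.5 to 60.1; 55.4% and 42.9%) against 25%. Both words thus went with bound pairs in each replicate, while DRE differed little and Ohler motif 1 was lower. Since the words were picked from these summits, these shares are a description only. Pairs that share a peak are also not independent. The pre-mod(mdg4)-E/pre-mod(mdg4)-AD peak on 3R, with CAGCCCTG near its summit, had 3 minus-strand and 7 plus-strand genes in its window. The part of that locus in the CAGCCCTG share was not tested.

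The 4 elements overlapped little. At least 1 of them was near 202 member summits (29.1%), 2 or more near 21, and none near 491. Over all reproducible peaks, DRE, Ohler motif 1, CAACACTG and CAGCCCTG taken singly stood at 6.04%, 2.38%, 4.64% and 2.92%. Any of the 4 was in the stretch of 51.8% of annotated pairs with a peak and of 41.2% of those without. The 2 words were picked from these summits, so the combined count is a description only. DRE occurred with CAGCCCTG at 9 and with CAACACTG at 5, and the 2 words together at 1. Members with CAACACTG had a median combined signal of 143.1 against 132.8 without, and those with CAGCCCTG 134.4 in both cases. None of the 20 strongest members had either word near its summit.

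**Figure D5:**
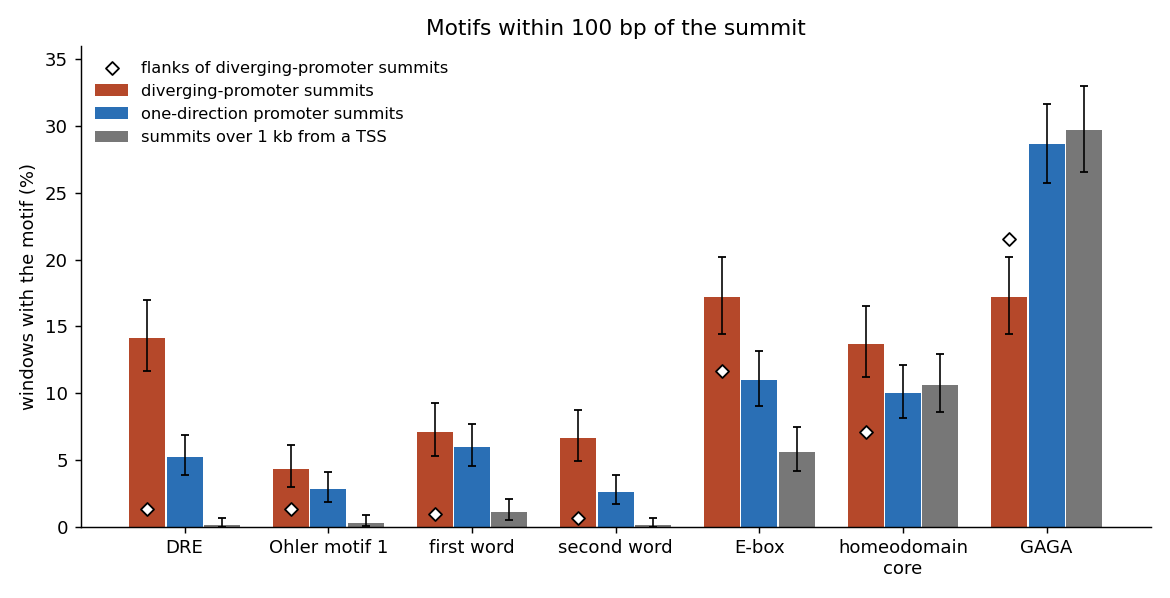
Share of windows with each motif within 100 bp of the summit (vertical, %) at diverging-promoter, one-direction promoter and other reproducible peaks, with 95% Clopper-Pearson intervals; diamonds are windows 500 bp to either side of the diverging-promoter summits, both sides together. The first and second words are CAACACTG and CAGCCCTG; DRE stands at 14.1% of diverging-promoter summits and 1.3% of their flanks, and GAGA at 17.2% and 21.6%.

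CGATA, which every DRE contains, was near 348 member summits (50.2%, interval 46.4 to 54.0), against 34.8% at one-direction promoter peaks, 22.2% at the others and 37.1% at annotated TSSs. It did not separate bound from unbound pairs. At pair midpoints CGATA was in 41.2% of pairs with a peak and 41.3% of those without. Over the stretch with 100 bp on either side the shares were 73.3% and 74.4%. The E-box CAGCTG was near 17.2% (14.4 to 20.2), against 11% and 5.62% in the other classes and 13.4% at TSSs. GAGAG, the site of the GAGA factor, went the other way, with 17.2% of members (14.4 to 20.2) against 28.6% of one-direction promoter peaks (25.7 to 31.7) and 29.7% of the others (26.6 to 33.0). The pioneer factor motif CAGGTAG of Zelda was near 5 member summits (0.72%), beside 0.82% of all reproducible peaks, 2.02% of flanks and 1.08% of TSSs. TATAAA was near 28.4%, TCAGTT, a form of the initiator, near 11%, and GGTATTTTT, near Ohler motif 6, near 1.88%, against 26.9%, 21.9% and 1.86% at TSSs.

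The homeodomain core TAATTA was near 95 member summits (13.7%, interval 11.2 to 16.5) and in 7.07% of their flanks, with 9.98% at one-direction promoter peaks (8.12 to 12.1) and 10.6% at the others (8.61 to 13.0). The intervals of the 3 classes overlapped. TAAT and ATTA separated by 3 bases, a spacing that paired-class dimers can use, was near 17 summits (2.45%, 1.44 to 3.90), against 1.19% and 1.1% in the other classes and 1.1% at TSSs. Members with TAATTA had a median combined signal of 147.7 against 132.3 without, with 81.3 and 72.7 in replicate 1 and 66.5 and 62.2 in replicate 2. At pair midpoints TAATTA was in 23.7% of pairs with a peak and 21.5% of those without. Base composition differed between summits and flanks. Windows at member summits had 39.2% G and C on average (SD 6.3) against 47.8% in their flanks. The mean was 40.4% at one-direction promoter summits and 38.8% at the others. Many A- and T-rich words were more frequent at member summits than in their flanks. So were some words richer in G and C, such as CAGCCCTG and CAGCTG (the latter 17.2% against 11.7%). The part of base composition in the motif shares was not tested.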

How the data were processed

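Anti-GFP ChIP-seq of CG9876-GFP embryos was available as region lists in dm6. Column 7 of the deposited lists holds a signal in the authors' unit; how it was computed, the aligner, the peak caller and the threshold of the reproducible list were not given in the sources used here. Per the deposited text files, each replicate's list used its alignments with a control, and the reproducible list was derived from the replicate and combined lists by irreproducible discovery rate. Lists in dm3 were not used. TSSs of protein-coding transcripts came from Ensembl release 115 and bases from the RefSeq dm6 sequence; all listed regions lay within its 6 arms used here. Members and gene lists (12, by symbol) were chosen with earlier results of these data known. Named pairs are the 20 strongest members, up to 4 per gene list, members with both genes listed, those at the 1 kb limit and extremes of signal, gap and replicate difference; a few sequences were added for words chosen later. A replicate region matched a peak when it held its summit; its strongest 2433 regions gave replicate values. Motifs were searched on both strands within 100 bp. No significance test was run. Alternatives covered the peak list, replicates, windows, TSS set, pairing, motif window and overlap. Python 3.11.15, numpy 2.4.6, pandas 2.3.3, scipy 1.17.1 and matplotlib 3.10.9 were used, and the scripts were tested on simulated data.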

Additional observations from a re-analysis of the deposited data

How the results depend on the processing

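No paired analysis was possible because both samples belong to 1 group. The results were recomputed with the peaks above the median signal only, with each replicate alone, with windows of 500 bp and 2 kb, with 1 TSS per gene, with the outermost TSSs as the pair, with other motif windows and with other overlaps; 36 values moved by less than the replicate spread, 35 by more and 2 changed sign. For the distance between replicate summits, the 95% interval of its median (22 to 27 bp) stood in for that spread. The values with each replicate alone are also those from which the spread was taken. For Ohler motif 1 the SD of 0.018 comes from 2 nearly equal values, and each setting tried for it counted as moved. The counts of moved values therefore do not measure robustness. The difference in median signal between members and one-direction promoter peaks turned from 2.30 to -1.52 among the peaks above the median and to -3.5 with 2 kb, and was 8.01 with 500 bp and 0.714 with 1 TSS per gene. Among the peaks above the median, the median gap was 290 bp, the median signal 185.5, the share in the strongest regions of both replicates 95.07%, Ohler motif 1 3.01%, the distance between replicate summits 21 bp and the share of annotated pairs with a peak 14.85%. Windows of 500 bp and 2 kb gave a diverging share of 22.36% and 35.68%, a gap of 277 and 363.5 bp, a median signal of 138.2 and 129.2, Ohler motif 1 at 5.33% and 4.26%, and 21.52% and 30.71% of annotated pairs; with 2 kb DRE was at 12.21%. With 1 TSS per gene the diverging share was 24.62% and Ohler motif 1 4.67%. The outermost TSSs gave a gap of 407 bp and 90.33% of summits between. Motif windows of 50 and 200 bp gave DRE at 7.94% and 19.77% and Ohler motif 1 at 1.73% and 7.22%, as shorter and longer windows hold fewer and more bases. Pairs at most 300 bp apart had a peak in 29.22% of cases. With either replicate left out, the ranges were 26.59 to 29.51% for the diverging share, 304 to 313.5 bp for the gap, 74.5 to 83.15% for summits between, 65.75 to 71.04 for the signal, 1.4 to 2.68 for the signal difference, 69.22 to 76.2% for both replicates, 11.84 to 14.06% for DRE, 4.46 to 4.48% for Ohler motif 1 and 24.71 to 27.3% for annotated pairs. The signals with 1 replicate left out come from the other replicate's list, whose scaling to the combined list is not given in the sources used here. Counting each pair once, and an overlap of 1 bp, were added after the data were seen and moved nothing beyond the spread. For the other values that moved the cause was not tested. Read depth is unknown, so no limit from depth can be given.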
